A study of Mus musculus with 40 samples.

Results

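The hypothalamic transcriptomes of the 9 BXD mouse lines with the most and the 9 with the least Mbp transcript were set against each other. Mbp encodes myelin basic protein, which holds the layers of the myelin sheath together. The lines were chosen by the readout itself: the 36 BXD libraries were ranked on Mbp in CPM, the count of a gene scaled to the total count of its library, and the 9 highest and 9 lowest were taken. The sets therefore hold 18 of the 36 BXD lines and 18 of the 40 libraries of the series. The Mbp difference between them follows from the choice and was not tested.

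BXD lines are recombinant inbred strains bred from the strains C57BL/6J and DBA/2J, so each line is homozygous for a fixed mosaic of both parental genomes. The high set was BXD79, BXD32, BXD65, BXD49, BXD87, BXD71, BXD73, BXD83 and BXD103, and the low set was BXD98, BXD66, BXD67, BXD90, BXD100, BXD101, BXD63, BXD44 and BXD43. The 18 lines between them, C57BL/6J, DBA/2J and their reciprocal hybrids B6D2F1 and D2B6F1 served for reference. All libraries were labelled hypothalamus, no treatment is named in the labels, and sex and age were not used here. Each line gave 1 library, made for BXD lines from the RNA of 3 to 6 hypothalami in equal amounts. The spread within a set is therefore between lines, not between animals, and strain, pool and library cannot be told apart in it. The series screened these strains for regulators of glucagon secretion, a question that the Mbp ranking does not address.

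Oligodendrocytes are the cells that wrap axons of the central nervous system in myelin, a membrane rich in cholesterol, galactolipids and a few abundant proteins. They arise from precursors that carry Pdgfra and Cspg4, pass through a newly formed stage, and as mature cells are driven by the transcription factors Sox10 and Myrf. In bulk tissue, fewer oligodendrocytes and less myelin RNA per cell cannot be told apart.

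For 4 myelin genes the 250 bases upstream of the RefSeq transcription start (GRCm38.p6) are printed 5′ to 3′ on the gene's strand, because these genes were among those higher in the high lines and the factors Sox10 and Myrf are measured there too. Capitals mark matches, on either strand, to a MYRF heptamer (CTGGCAC or CTGGTAC) or a SOX hexamer (ACAAAG or ACAATG). The windows are chr9:120149492-120149741 on the plus strand for Mobp, chr17:37023399-37023648 on the minus strand for Mog, chr3:31149670-31149919 on the plus strand for Cldn11 and chr19:41077114-41077363 on the minus strand for Opalin.
Mobp: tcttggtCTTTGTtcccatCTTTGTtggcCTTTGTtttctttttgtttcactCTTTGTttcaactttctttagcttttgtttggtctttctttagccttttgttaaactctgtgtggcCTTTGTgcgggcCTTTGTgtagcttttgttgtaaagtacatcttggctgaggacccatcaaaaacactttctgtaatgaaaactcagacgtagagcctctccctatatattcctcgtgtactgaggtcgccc
Mog: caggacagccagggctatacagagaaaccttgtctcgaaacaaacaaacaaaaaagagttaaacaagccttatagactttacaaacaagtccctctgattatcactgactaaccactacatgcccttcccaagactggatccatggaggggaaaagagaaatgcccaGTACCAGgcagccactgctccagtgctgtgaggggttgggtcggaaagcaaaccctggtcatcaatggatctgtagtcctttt
Cldn11: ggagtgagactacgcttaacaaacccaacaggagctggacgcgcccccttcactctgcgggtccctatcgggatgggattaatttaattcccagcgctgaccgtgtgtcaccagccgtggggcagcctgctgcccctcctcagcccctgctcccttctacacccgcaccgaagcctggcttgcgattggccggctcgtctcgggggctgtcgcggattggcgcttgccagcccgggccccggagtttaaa
Opalin: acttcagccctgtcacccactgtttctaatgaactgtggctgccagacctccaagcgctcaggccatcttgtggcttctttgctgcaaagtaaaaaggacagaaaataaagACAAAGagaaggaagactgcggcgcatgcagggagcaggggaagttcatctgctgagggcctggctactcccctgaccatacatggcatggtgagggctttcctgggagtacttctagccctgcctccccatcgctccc

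The Mobp window held 6 SOX hexamers, between 243 and 120 bases before the start. The Mog window held 1 MYRF heptamer 83 bases before the start and the Opalin window 1 SOX hexamer 139 bases before it, while the Cldn11 window held neither motif. Over all 32851 promoters of the RefSeq table, 5.93% held a MYRF heptamer and 25.2% a SOX hexamer in the same window. Of the 21 genes found higher in the high lines, 13 had a window in the table, and 1 of these held a MYRF heptamer and 7 a SOX hexamer, against 6.79% and 28.2% of all genes in the table. A match is a run of letters, not a bound site.

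Mbp took 0.254% to 0.357% of all counts in the high lines and 0.141% to 0.201% in the low lines. Its level was 2543, 2777 and 3571 CPM (lowest, median, highest) in the high set and 1408, 1963 and 2014 CPM in the low set, with means of 2850 ± 384 and 1898 ± 190 CPM (SD, n = 9 lines each), a 1.50-fold ratio. The edge of the high set was narrow: BXD103 lay inside at 2542.6 CPM and BXD97 outside at 2541.9 CPM. At the low edge, BXD98 was inside at 2014.3 CPM and BXD64 outside at 2053.4 CPM. C57BL/6J stood at 2637 CPM and DBA/2J at 2381 CPM, so both parents lay between the extremes of their descendant lines. BXD43 was the lowest line by a wide gap, at 1408 CPM against 1876 CPM in BXD44, the next.

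Library totals were 17.3 to 26.1 M counts in the high set (mean 21.5) and 18.1 to 30.1 M in the low set (mean 23.9), a difference with p = 0.13 in a two-sided exact permutation test over 48620 arrangements. The hypothalamic peptide gene Hcrt was present in every line, at 37.9 to 114 CPM in the high and 23.4 to 123 CPM in the low set. The library labelled BXD32, second by Mbp, stood apart. It was above all 35 other lines for 13 of 19 brainstem genes, 13 of 15 choroid plexus genes and 14 of 20 genes of large myelinated axons. Slc6a5, the glycine transporter of hindbrain and spinal neurons, reached 56.5 CPM there and at most 0.202 CPM in the other lines. The hindbrain gene Hoxb3 was at 7.55 CPM against at most 0.0780 CPM, and the choroid plexus gene Ttr at 808 CPM against at most 78.6 CPM. Hcrt was within the range of the other lines in BXD32, at 43.8 CPM, as was the mean log2 level of the hypothalamic peptide list, at 4.135. Th (22.5 CPM, others at least 24.1) and Slc6a3 (3.58 CPM, others at least 6.17) were lower in BXD32 than in every other line. So was the mean of the ependyma and tanycyte list, at 3.44. The labels' extraction text speaks of hypothalamus and brainstem, and whether RNA of another region entered this library was not tested. Results are therefore given with and without BXD32.

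**Figure D1:**
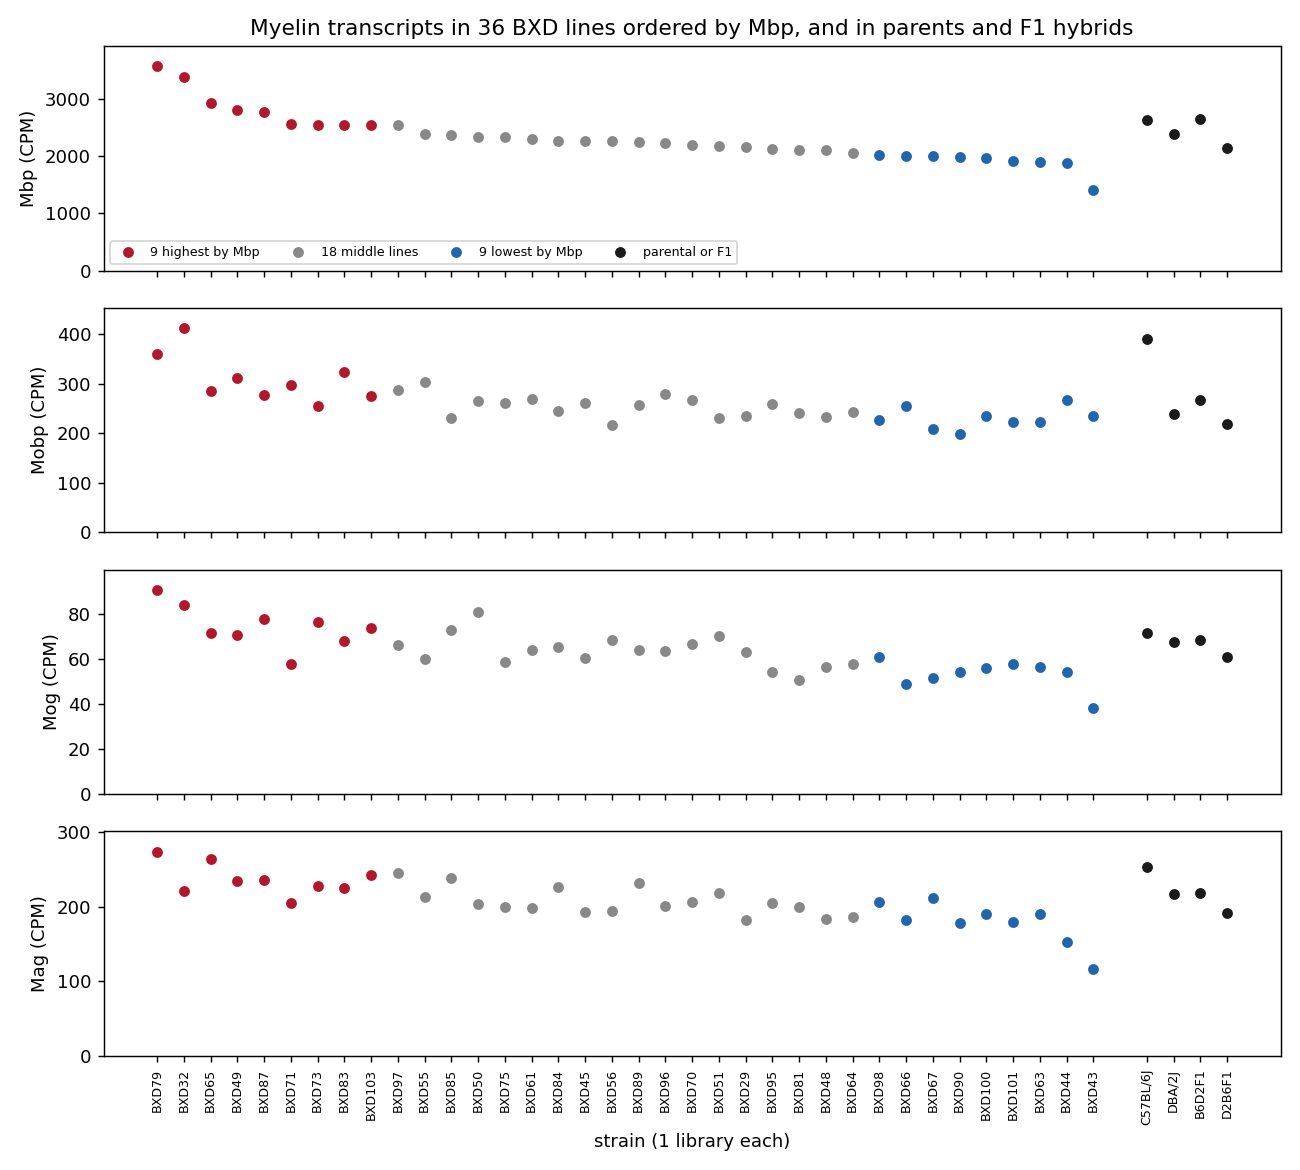
Level of 4 myelin transcripts (CPM, linear axes from 0) in each of the 36 BXD lines, ordered by Mbp from left to right, and in the parental and F1 strains. Each point is 1 library. Mbp chose the colours, and Mobp, Mog and Mag run down from the red to the blue lines with overlap. BXD43 is the lowest line for Mog at 38.1 CPM and for Mag at 117 CPM.

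Across the 15420 genes tested other than Mbp, 21 were higher and 2 lower in the high lines (edgeR quasi-likelihood test, Benjamini-Hochberg adjusted p under 0.05), which is 0.136% and 0.013% of the genes tested. Of the 21, 14 belonged to 2 lists of myelin structure and of oligodendrocyte metabolism, and another was the oligodendrocyte factor Myrf. These genes are made by the same cells as Mbp and were measured in the same libraries, so their counts describe what the ranking on Mbp gathered. Without BXD32, 16 genes were higher, 10 of them in these lists, and 1 was lower. The count was 17 in all without BXD32, of which 14 were among the 23 found with it. With log2 of the library total as a covariate, no gene was higher and 1 was lower in edgeR, and an unadjusted p under 0.05 was reached by 479 genes in the high and 460 in the low direction, against 531 and 385 without the covariate. In DESeq2, run without it, the counts were 80 higher and 17 lower.

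Both lists as a whole lay above 0. Of their 76 tested members 74 had a positive difference and 55 an unadjusted p under 0.05 in the high direction, against 3.44% of all genes tested. The median log2 difference was 0.32, while it was -0.00 over all genes, 49.3% of which were positive. Without BXD32, 73 of 76 were positive, 51 had such a p and the median was 0.27. With the library total as a covariate, 75 of 76 were positive, 51 had such a p and the median was 0.30.

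**Figure D2:**
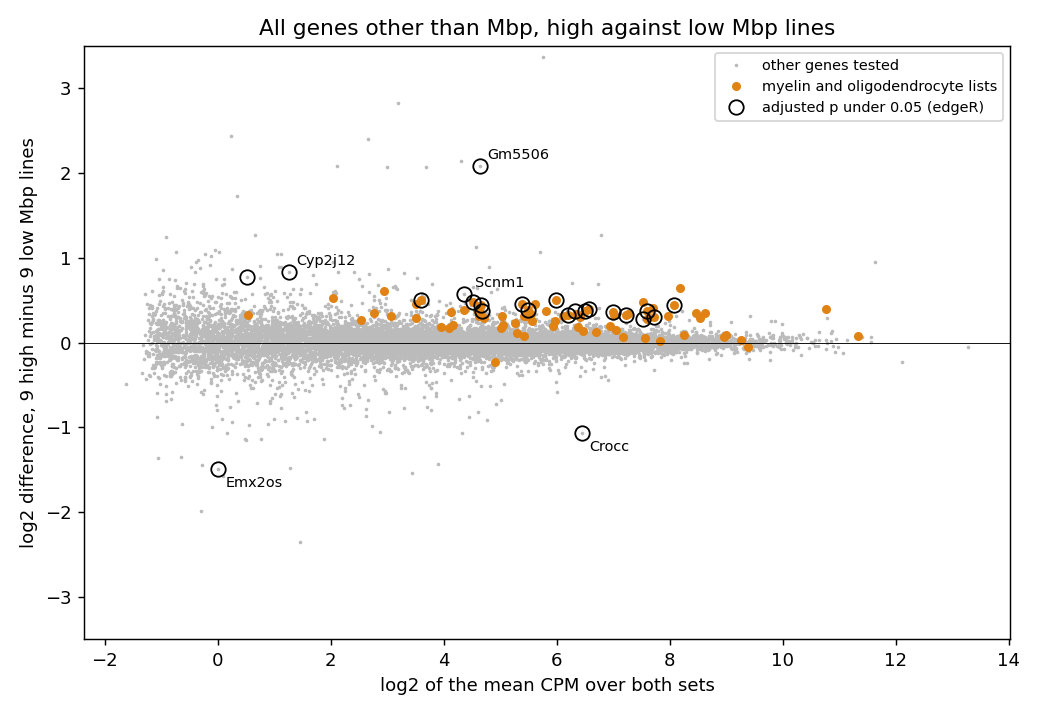
Log2 difference of each gene between the 9 high and 9 low Mbp lines (vertical) against the log2 of its mean CPM over both sets (horizontal). Orange points are members of the 2 myelin and oligodendrocyte lists, black rings the 23 genes with an adjusted p under 0.05. The orange points lie almost all above 0 at a modest size, while the ringed Gm5506, Crocc and Emx2os outside the lists differ by more than 1 log2 unit.

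Among the 31 tested genes of myelin structure, all had a positive difference, 7 passed the test and the median was 0.32. The 7 were Mog, Sept4, Mobp, Gjb1, Cldn11, Tmem88b and Opalin. Mobp, a structural protein of the compact sheath, was at 254, 296 and 412 CPM (lowest, median, highest) in the high lines and at 197, 226 and 268 CPM in the low lines. The sets overlapped: BXD73, the lowest high line, lay below BXD44 of the low set. The log2 difference was 0.44 ± 0.08 (SE, n = 9 and 9, edgeR adjusted p = 0.0257), and 0.38 ± 0.07 without BXD32 (edgeR adjusted p = 0.0217). C57BL/6J held 389 CPM of Mobp and DBA/2J 239 CPM, 1 library each.

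Mog, on the outermost layer of the sheath, was at 57.9, 73.8 and 90.6 CPM in the high and 38.1, 54.3 and 60.7 CPM in the low lines. Only the edges of the sets overlapped, since BXD71 was the one high line below the highest low line. Mog rose by 0.50 ± 0.08 log2 units (edgeR adjusted p = 0.0138). Sept4, a septin, stood at 213 to 252 CPM in the high and 153 to 205 CPM in the low lines without overlap, a log2 difference of 0.30 ± 0.05. Cldn11, which forms the tight junctions between myelin layers, differed by 0.36 ± 0.07, and Gjb1, the gap junction protein connexin 32, by 0.50 ± 0.10. Opalin, a sialylated glycoprotein of the oligodendrocyte membrane, differed by 0.48 ± 0.10, with an edgeR adjusted p of 0.0486 that became 0.0730 without BXD32. Tmem88b, Cldn11 and Gjb1 each had an edgeR adjusted p of 0.0626 without that line.

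Other members of the list missed the threshold. Mag, an adhesion protein at the inner face of the sheath, had 205 to 273 CPM in the high and 117 to 211 CPM in the low lines (log2 difference 0.41 ± 0.09, edgeR adjusted p = 0.0567). Cnp, an enzyme of the non-compact myelin, had a log2 difference of 0.29 ± 0.09 (edgeR adjusted p = 0.419). Pllp (0.46 ± 0.10) and Mal (0.32 ± 0.07), both proteolipids, were also short of it. Smaller differences were measured for Tppp (0.03 ± 0.05), Nfasc (0.06 ± 0.04), Omg (0.07 ± 0.07) and Cntn2 (0.09 ± 0.06), which neurons also make.

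Of the 45 tested genes of oligodendrocyte metabolism and signalling, 43 had a positive difference and 7 passed. Gpr37, a receptor of maturing oligodendrocytes, was at 94.5, 107 and 130 CPM in the high and 66.2, 84.2 and 92.2 CPM in the low lines. The sets did not overlap, and the log2 difference was 0.40 ± 0.06 (edgeR adjusted p = 0.0138). Tmem63a, a mechanically gated ion channel, had 43.5 to 53.6 against 26.8 to 40.8 CPM, again without overlap (0.45 ± 0.07). Slc44a1, a choline transporter, differed by 0.33 ± 0.05, Qdpr, which recycles tetrahydrobiopterin, by 0.38 ± 0.06 and Ndrg1 by 0.32 ± 0.06. Adamts4, a protease that marks mature oligodendrocytes, differed by 0.44 ± 0.09. Fa2h, which hydroxylates the fatty acids of myelin galactolipids, differed by 0.38 ± 0.08 without overlap, and its edgeR adjusted p of 0.0486 became 0.0730 without BXD32.

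BXD32 weighed on other genes of that list. Enpp2, the enzyme autotaxin, which choroid plexus also makes, reached 937 CPM in BXD32 and at most 309 CPM in the other high lines. Its log2 difference of 0.64 ± 0.23 became 0.31 ± 0.06 without BXD32 (edgeR adjusted p 0.528 and 0.0626). For Ugt8a, which makes galactocerebroside, the difference of 0.34 ± 0.13 became 0.20 ± 0.08. Aspa (0.38 ± 0.09) and the transferrin gene Trf (0.35 ± 0.08) missed the threshold. Padi2 (-0.23 ± 0.14) and Kcnj10 (-0.05 ± 0.13), a potassium channel that astrocytes share, were the 2 members with a negative difference, and Car2 was at 0.02 ± 0.11.

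Over all genes tested, 12 had 9 high values above all 9 low values, 0.0778% of the total, and none (0%) had the reverse order. Of these, 8 were in both lists together, among them Gpr37, Tmem63a, Qdpr, Ndrg1, Sept4, Fa2h and Bcas1. Those outside both lists were Myrf, Plekhg3, Phldb1 and Plxnb3. Bcas1, which marks oligodendrocytes that are starting to myelinate, was at 178 to 350 CPM in the high and 136 to 178 CPM in the low lines. Its log2 difference of 0.48 ± 0.10 had an edgeR adjusted p of 0.0658, and 0.36 ± 0.05 without BXD32 one of 0.0111.

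**Figure D3:**
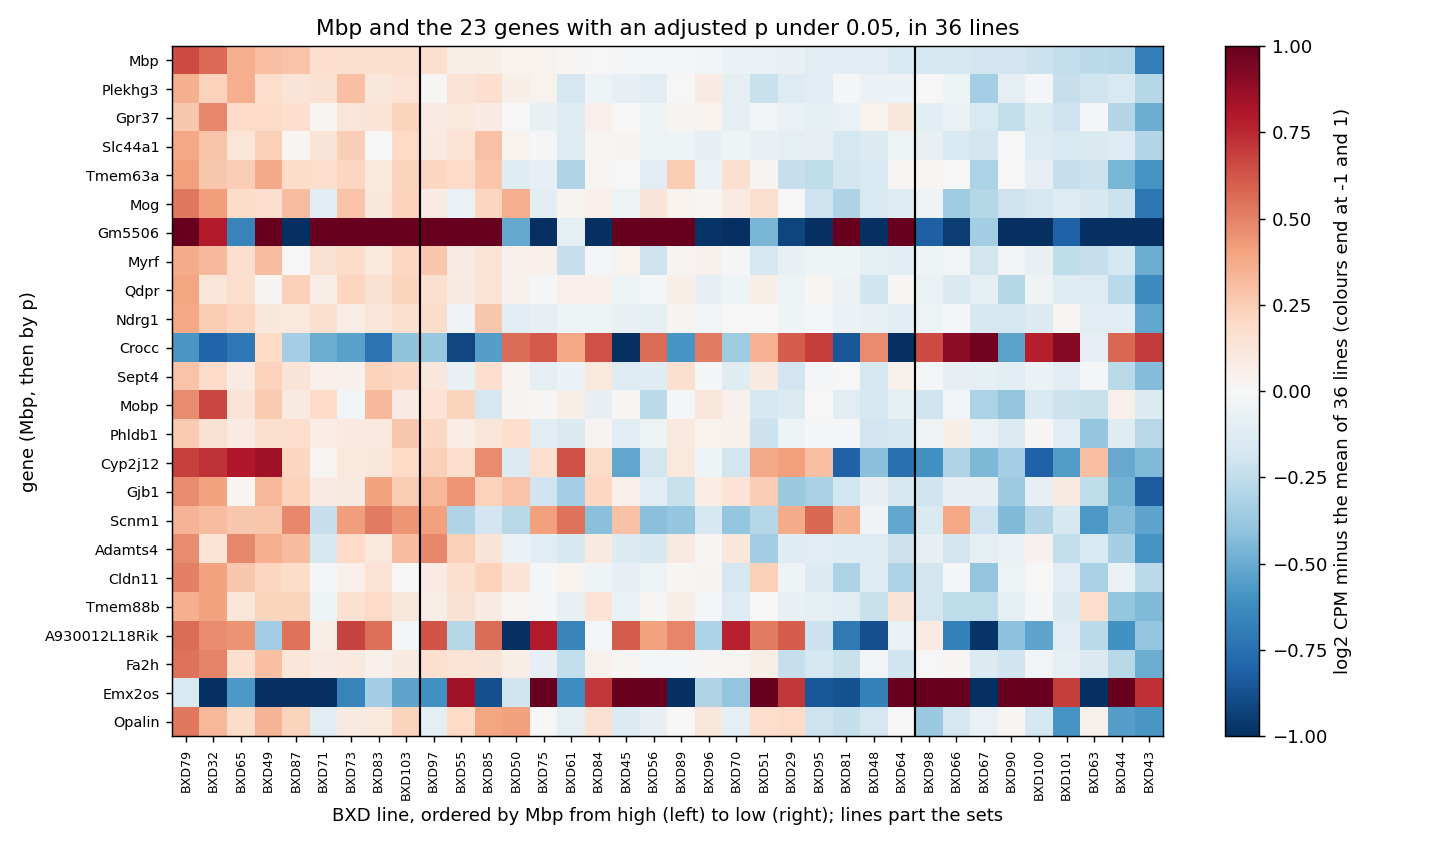
Heat map of Mbp and the 23 genes with an adjusted p under 0.05 (rows) in the 36 BXD lines (columns, from high to low Mbp). Colour gives log2 CPM minus the mean of 36 lines, red above and blue below, with the scale ending at -1 and 1. Most myelin genes grade from red to blue and are deepest blue in BXD43, whereas Gm5506, Crocc and Emx2os switch between strong red and strong blue from line to line.

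The lineage was then followed by stage. Among 20 oligodendrocyte transcription factors, 16 had a positive difference, and Myrf, which switches on myelin genes in maturing cells, was the one that passed. Without BXD32, 16 were positive as well and Myrf again passed alone. Myrf was at 78.6, 89.0 and 101.3 CPM in the high and 55.5, 69.3 and 77.0 CPM in the low lines. The sets did not overlap, with a log2 difference of 0.37 ± 0.06 (edgeR adjusted p = 0.0138) and 0.36 ± 0.06 without BXD32. Sox10, which acts with Myrf, had 0.41 ± 0.12 (edgeR adjusted p = 0.283). The factors Olig1 (0.20 ± 0.12) and Olig2 (0.08 ± 0.07) had smaller values.

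None of the 22 precursor genes passed in edgeR, 1 had an unadjusted p under 0.05 (5.94% of all genes tested did, in either direction), 12 were positive and the median was 0.01. Pdgfra, the receptor that keeps precursors dividing, was at 82.4, 95.0 and 104 CPM in the high and 84.2, 94.1 and 109 CPM in the low lines. The ranges covered each other, and the log2 difference was -0.00 ± 0.06. Cspg4 (0.01 ± 0.09), Ptprz1 (-0.01 ± 0.07) and Gpr17, a receptor of committed precursors (0.01 ± 0.07), were as near 0. Without BXD32, Cspg4 was at 0.06 ± 0.08, Ptprz1 at -0.03 ± 0.07 and Gpr17 at 0.03 ± 0.08. Sox11, a factor of immature cells, had -0.17 ± 0.06 (edgeR adjusted p = 0.440). The 16 genes of newly formed oligodendrocytes had a median of 0.03, 11 were positive, 2 had an unadjusted p under 0.05 and none passed. Without BXD32 their median was 0.02, 12 were positive, 1 had such a p and none passed. Enpp6, a marker of that stage, had the largest value at 0.53 ± 0.15 (edgeR adjusted p = 0.213), 0.39 ± 0.11 without BXD32, while Bmp4 (0.09 ± 0.18) and Itpr2 (0.04 ± 0.09) were small. That the precursor and mature lists differed from each other was not tested.

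Of 24 tested genes of cholesterol synthesis, a pathway that supplies myelin membrane, 17 were positive, the median was 0.04 and none passed. Without BXD32, 16 were positive and the median was again 0.04. Cyp51, a demethylase of the pathway, had 0.23 ± 0.09 (edgeR adjusted p = 0.636). Of 20 genes of large myelinated axons, 19 were positive with a median of 0.17, but 14 with a median of 0.07 without BXD32. Vamp1, a vesicle protein, went from 0.31 ± 0.12 to 0.18 ± 0.06, Pvalb, a calcium buffer, from 0.47 ± 0.20 to 0.23 ± 0.13, and Spp1, osteopontin, from 0.69 ± 0.33 to 0.22 ± 0.18. All 8 tested brainstem genes were positive with and without BXD32, at medians of 0.41 and 0.30. The serotonin enzyme gene Tph2 had 2.44 ± 0.78 with and 0.75 ± 0.30 without BXD32. None of these genes passed the test.

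Lists of other cell types held no gene past the threshold. None passed in edgeR among 20 astrocyte genes (median 0.04, and 0.05 without BXD32) and 20 microglial ones (0.04, and 0.09 without BXD32). Nor did any of 20 endothelial and mural genes (-0.01, and 0.01 without BXD32) or 24 neuronal and synaptic ones (-0.01, and 0.02 without BXD32). Of all these, 4 had an unadjusted p under 0.05, against 5.94% of all genes. Slc1a3, a glutamate transporter of astrocytes, had the smallest p of its list at -0.21 ± 0.05 (edgeR adjusted p = 0.158). C1qa, a complement gene of microglia, had 0.33 ± 0.14, and 0.42 ± 0.10 without BXD32 (edgeR adjusted p 0.747 and 0.144). Of 20 microglial genes 15 were positive, and 17 without BXD32. Of 16 genes of striatum and septum, the neighbouring forebrain, 15 were negative with a median of -0.20, and 13 with a median of -0.19 without BXD32. Of 16 thalamic genes 12 were positive, with a median of 0.13 and of 0.21 without BXD32. Of 12 tested choroid plexus genes 10 were positive with a median of 0.21, but 3 with a median of -0.05 without BXD32. BXD90, a low line, was the highest of all for the striatum and septum list, at a mean log2 level of 6.44 against 4.71 to 5.13 in the other low lines. With the mean of the striatum and septum list as a covariate, 24 genes were higher and 3 lower. Of 28 hypothalamic transcription factors, 22 were negative with a median of -0.09 (19 and -0.07 without BXD32), and none passed.

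**Figure D4:**
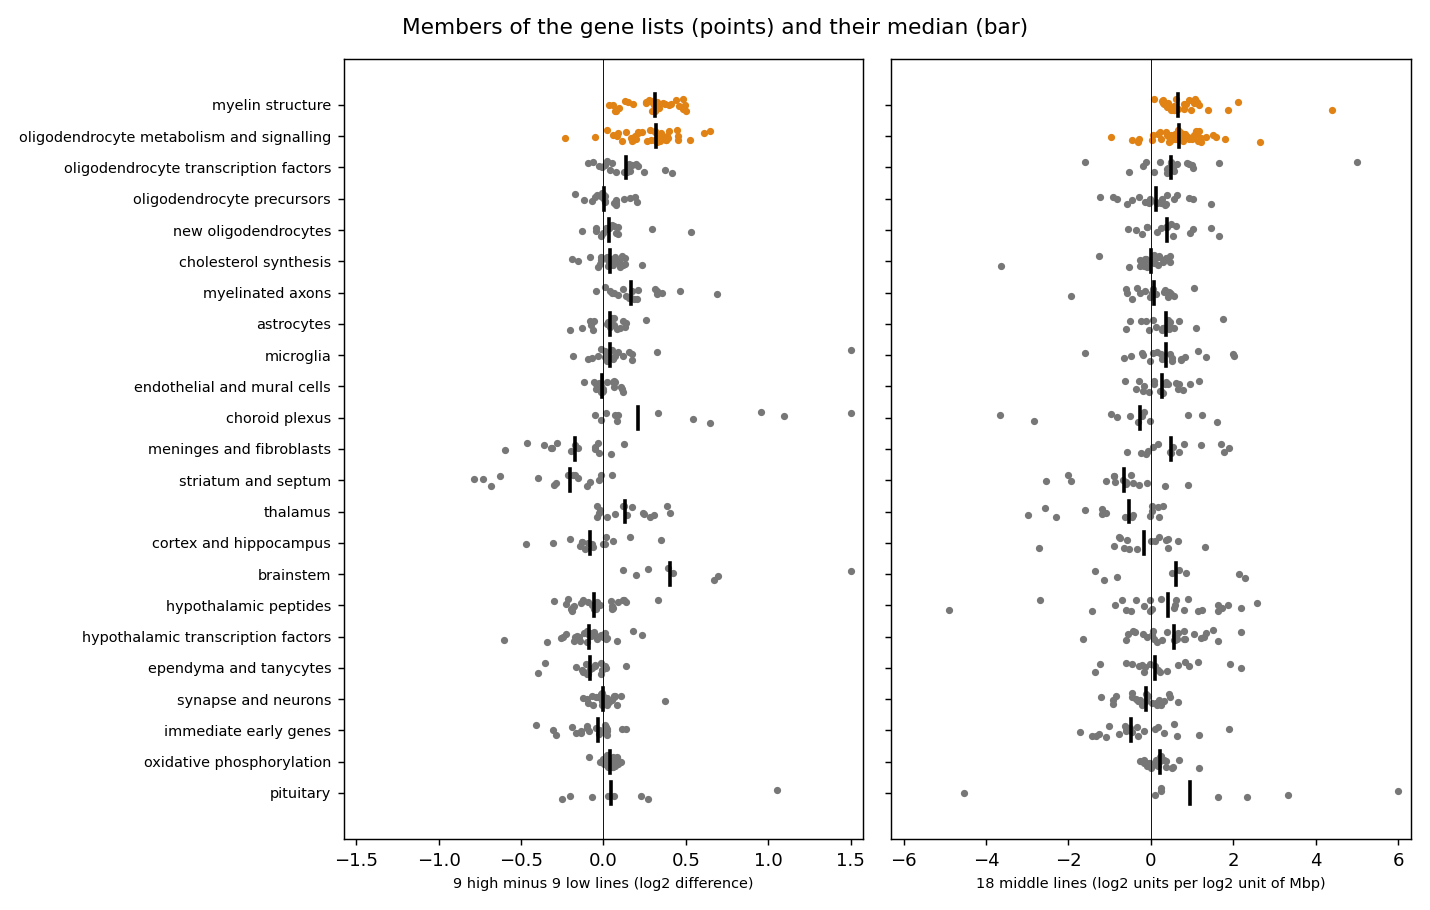
Members of the gene lists (points) with the median of each list (bar). The left axis gives the log2 difference between 9 high and 9 low lines, the right axis the slope of log2 expression per log2 unit of Mbp in the 18 middle lines, and points beyond an axis are drawn at its end. The 2 orange lists lie right of 0 in both panels, precursors straddle 0, and a list of 2 tested blood genes is left out.

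The 18 middle lines are in neither set, and their libraries give the same measure a second time over a narrow Mbp range of 0.31 log2 units. A slope on log2 Mbp was fitted for 16096 genes. In edgeR no gene passed, 358 (2.22%) rose and 420 fell at an unadjusted p under 0.05, and DESeq2 called 1 gene. Of the 76 genes of both lists 72 had a positive slope, against 49.2% of all genes, with a median of 0.67 log2 units per log2 unit of Mbp. An unadjusted p under 0.05 was reached by 32 of the 76, all rising. Slopes were 1.04 ± 0.29 for Mag, 1.17 ± 0.29 for Cnp, 1.38 ± 0.34 for Cldn11 and 1.02 ± 0.30 for Myrf. Gpr37 (0.21 ± 0.25), Sept4 (0.42 ± 0.32) and Bcas1 (0.50 ± 0.33) had smaller slopes there. Among the other factors named above, Olig1 had 1.66 ± 0.64, Olig2 0.92 ± 0.48 and Sox10 0.62 ± 0.65. The precursor gene Pdgfra had -0.10 ± 0.34, and Gpr17, at 0.01 ± 0.07 between the sets, had 1.46 ± 0.49. Some regional lists changed direction in the middle lines. Of 28 hypothalamic transcription factors 21 had a positive slope (median 0.57), and of 16 thalamic genes 5 did (median -0.54). Of 16 genes of striatum and septum 2 were positive (median -0.65), the same direction as between the sets.

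Myelin genes did not order the lines alike. Ranked by Mobp in place of Mbp, 6 of the 9 high and 5 of the 9 low lines were shared and none crossed over. That ranking gave no gene past the threshold in edgeR, with 465 higher and 309 lower at an unadjusted p under 0.05, and 71 of 75 list genes positive with a median of 0.21. BXD43 was lowest of 36 for Mbp, Mag (117 CPM) and Mog (38.1 CPM), but ranked 25 for Mobp (236 CPM). BXD32 ranked 1 for Mobp and 12 for Mag. BXD44, next to last for Mbp, ranked 13 for Mobp.

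Outside the lineage lists, 6 genes were higher and 2 lower. Plekhg3, a guanine nucleotide exchange factor, was at 26.9, 28.1 and 31.9 CPM in the high and 19.6, 22.4 and 24.8 CPM in the low lines. The sets did not overlap, and the log2 difference was 0.37 ± 0.06 (edgeR adjusted p = 0.0138). Phldb1 had 191 to 220 against 139 to 190 CPM (0.28 ± 0.05), and its slope in the middle lines was 1.01 ± 0.30. Plxnb3, a semaphorin receptor made by oligodendrocytes, had 0.25 ± 0.05 (edgeR adjusted p = 0.0764), and Cers2, which makes ceramides with very long chains for myelin, 0.19 ± 0.04 (edgeR adjusted p = 0.0778). Prr5l had 0.44 ± 0.10 (edgeR adjusted p = 0.0804).

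The other genes outside the lists are given beside their levels in the parents. Crocc on chromosome 4, which encodes rootletin of the ciliary root, was at 44.3, 53.1 and 88.8 CPM in the high and 53.4, 125 and 151 CPM in the low lines. C57BL/6J had 136 CPM of it and DBA/2J 64.7 CPM. On a log2 scale all 9 high lines were nearer DBA/2J, while 7 of the 9 low lines were nearer C57BL/6J. Crocc fell by 1.06 ± 0.18 log2 units (edgeR adjusted p = 0.0174), with a slope of -0.79 ± 2.25 in the middle lines, which split 10 and 8 between the parents. Emx2os on chromosome 19, antisense to Emx2, had 0.307 to 0.778 CPM in the high and 0.393 to 2.33 CPM in the low lines (log2 difference -1.49 ± 0.30, edgeR adjusted p = 0.0486). All 9 high lines were nearer DBA/2J and 7 low lines nearer C57BL/6J. Whether the counting used strand is not given in the sources used here, so reads of Emx2os and Emx2 may be mixed. Without BXD32 the edgeR adjusted p of Emx2os was 0.0816.

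Gm5506 on chromosome 18 had the largest difference of those called, at 8.17, 48.8 and 56.0 CPM in the high and 5.98, 9.21 and 15.05 CPM in the low lines. It is a near copy of the enolase gene Eno1, so the split of reads between the copies is uncertain. Of the high lines 7 were nearer DBA/2J (45.9 CPM), and all 9 low lines were nearer C57BL/6J (17.2 CPM). The log2 difference was 2.08 ± 0.32 (edgeR adjusted p = 0.0138). It shares its chromosome with Mbp, as does the unnamed transcript A930012L18Rik (0.77 ± 0.15, edgeR adjusted p 0.0486, and 0.0730 without BXD32). The parental sides of these genes were opposite. For A930012L18Rik, 6 high lines were nearer C57BL/6J (1.80 CPM) and all 9 low lines nearer DBA/2J (1.29 CPM). On chromosome 3, Scnm1, a splicing factor, had 16.6 to 27.9 against 13.1 to 25.6 CPM (0.57 ± 0.11). Of the high lines 8 were at 23.5 CPM or more and of the low lines 8 at 17.6 CPM or less, and both parents (21.6 and 18.6 CPM) lay between these values. The edgeR adjusted p of Scnm1 was 0.0374, became 0.0626 without BXD32, and was under 0.05 in 3 of the 18 fits that left out 1 line. Tpm3, a tropomyosin on the same chromosome, was nearer C57BL/6J (66.6 CPM) in 8 high lines and nearer DBA/2J (33.6 CPM) in 8 low lines, with a log2 difference of 1.07 ± 0.21 (edgeR adjusted p = 0.0567). The cytochrome P450 gene Cyp2j12 on chromosome 4 had 0.83 ± 0.16, with 6 high lines nearer C57BL/6J (3.53 CPM) and 8 low lines nearer DBA/2J (1.74 CPM). Its edgeR adjusted p of 0.0307 became 0.0569 without BXD32, and 9 of the 18 fits that left out 1 line called it.

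**Figure D5:**
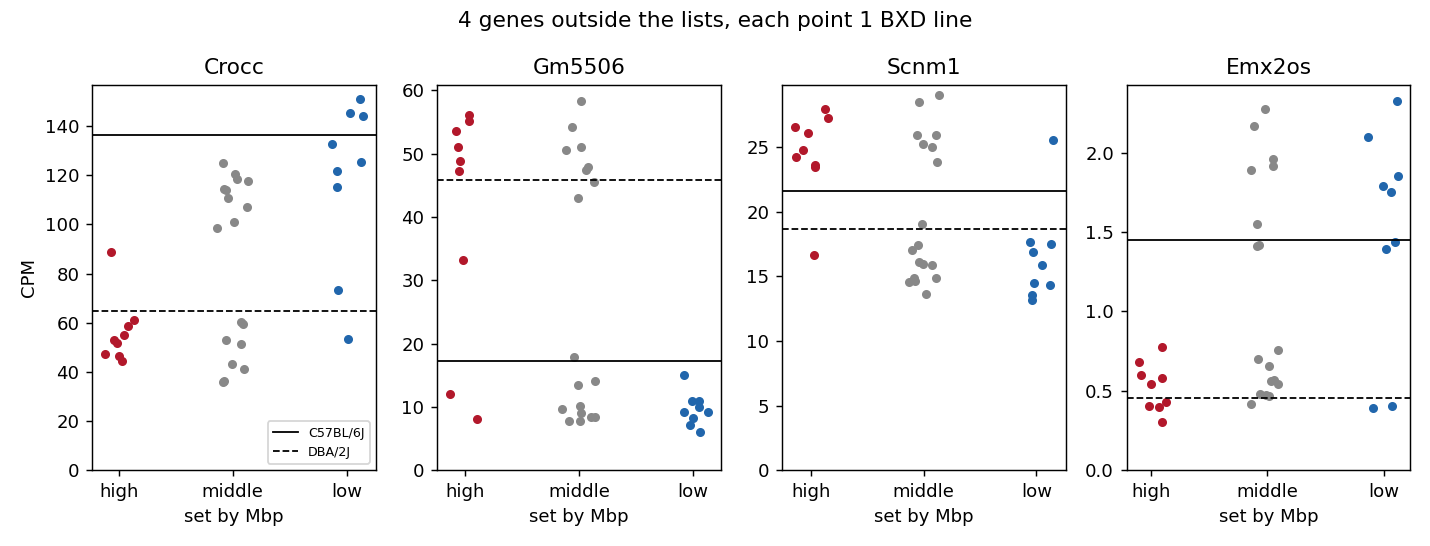
CPM of Crocc, Gm5506, Scnm1 and Emx2os (linear axes from 0) in the high, middle and low lines by Mbp, 1 point per line, with horizontal lines at the single C57BL/6J (solid) and DBA/2J (dashed) library. Points of Scnm1 and Emx2os fall into a lower and an upper band, and so do those of Gm5506 except BXD32, which lies between at 33.2 CPM. For Crocc, 2 lines, at 73.2 and 88.8 CPM, lie between its lower and upper values. No low line lies in the upper band of Gm5506 and no high line in the upper band of Emx2os.

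Genes outside both lists with an unadjusted p under 0.01, in either direction, made up 1.66% of the 15344 tested. The share was 3.88% on chromosome 3, 3.29% on chromosome 4, 2.98% on chromosome 18 and 2.57% on chromosome 17, and lowest among the autosomes on chromosome 5, at 0.524%. Genes of one chromosome segment are inherited together in these lines, and with 9 lines a set, a segment shared by chance and a segment tied to Mbp cannot be told apart.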

How the data were processed

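Counts of polyadenylated RNA from stranded libraries were used for 40 mouse hypothalamus samples. TopHat2 2.0.8, HTSeq 0.5.4p3, DESeq and assembly mm9 are named in the submitters' processing notes, and their settings are not given in the sources used here. The authors deposited a raw table of read counts with 23955 genes, 2649 of them at 0 throughout. They also deposited a normalized signal for 15251 genes, whose values were 100% whole multiples of 1 read within 0.01, and the recovered reads served an alternative.

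CPM used the full column sums. Totals ran from 12.2 to 40.4 M counts (median 23.0). Mbp was taken out of the tests, and genes were kept by filterByExpr. The fit was edgeR 4.0.16 in R 4.3.3 (TMM, quasi-likelihood with robust dispersion, Benjamini-Hochberg adjusted p under 0.05), on the 18 libraries of both sets, or on the 18 middle libraries with log2 Mbp as the slope. DESeq2 1.42.0 was the other tool. SE was derived from the log2 difference and its F value. Scripts were tested on simulated counts. p-values measure the spread between lines with 1 library each, in which strain and library are mixed, and no animals are replicated.

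Named genes were members of the 5 oligodendrocyte lists, the 15 higher and 15 lower genes outside every list with the smallest p, up to 4 genes in each of the other lists, and genes without overlap between the sets. Members, lists and tests were chosen with earlier results of these data known. Alternatives covered scaling, the filter, set size, the ranking gene, covariates, and leaving out lines, each line alone and BXD32 with BXD43 being added after the data were seen. Chromosomes came from the GRCm38.p6 annotation. 504 list entries in 24 lists were all found by symbol, and a few members are not reported here by name.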

Additional observations from a re-analysis of the deposited data

Results flagged for a closer look

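Among 46 groups of 9 values examined (the 23 genes with an adjusted p under 0.05, in each set), 7 held a line far from its neighbours by Dixon's criterion. Chance gives about 1 in 20 for independent groups of normally distributed values. These groups share their lines, and the values of Scnm1 fall into a lower and an upper band. The 7 therefore cannot be set against that rate. BXD43 was low within the low set for Qdpr (124 CPM, next 157) and Ndrg1 (102 CPM, next 129). BXD32 was high within the high set for Gpr37 (130.4 CPM, next 112). BXD49 was the high line with the most Crocc (88.8 CPM, next 61.1), BXD63 the low line with the most Cyp2j12 (2.77 CPM, next 1.83), BXD71 the high line with the least Scnm1 (16.6 CPM, next 23.5) and BXD66 the low line with the most Scnm1 (25.6 CPM, next 17.6).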

How the results depend on the processing

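No paired analysis was possible because lines are not matched across sets and each gave a single library. Counts are given in the order higher, lower, higher in the myelin and oligodendrocyte lists, against 21, 2 and 14. They were 12, 1 and 8 with library totals alone, 80, 17 and 33 with DESeq2, 12, 1 and 8 without the filter, and 0, 0 and 0 with 6 lines a set or with sets ranked by Mobp. They were 64, 6 and 32 with 12 lines a set, 60, 5 and 33 with all 36 lines in 3 sets, 171, 44 and 54 as a slope over 36 lines, and 0, 1 and 0 with the library total as a covariate. Lower genes numbered 1 with DESeq2 size factors or the thalamus covariate and 0 without BXD32 and BXD43, and 32 genes were higher when Mbp was ranked after TMM. Without the lines with Ttr above 3 times the median (BXD32, BXD65, BXD90, BXD101 and BXD63 of the sets), the counts were 1, 1 and 1, and 1 of these 2 genes was among the 23. In the middle lines DESeq2 called 1 rising gene. Leaving out each line gave 9 to 29 higher, 0 to 4 lower and 6 to 18 list genes. Higher and lower calls together fell from 23 to 9 without BXD79, 11 without BXD44, 12 without BXD67, 13 without BXD65 or BXD101 and 14 without BXD49, BXD103 or BXD43. Plekhg3, Gpr37, Slc44a1, Tmem63a, Mog, Gm5506, Myrf and Ndrg1 passed in all 18 of these fits. Over the other settings 71 to 75 list genes were positive. With 6 lines a set, 530 genes were higher and 500 lower at an unadjusted p under 0.05. Values near 0 changed sign. Ranked by Mobp, Kcnj10 was at 0.085, Pdgfra at 0.054, Ptprz1 at 0.039 and Dhcr7 at -0.011. With the library total, Kcnj10 was at 0.052, Cspg4 at -0.051 and Itpr2 at -0.0091. Cspg4 was at -0.0027 as a slope over 36 lines and -0.014 with the thalamus covariate. Gpr17 was at -0.00019 with library totals alone and -0.011 with the striatal covariate, under which Pdgfra was at 0.0023. The cause was not tested. Median log2 differences over all genes were -0.0015 with TMM and -0.0077 with totals alone. At these depths low genes such as Emx2os rest on few counts.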

Other observations

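Among genes short of the threshold, Fcrls, a gene of resident microglia on chromosome 3, was at 2.09 to 20.01 CPM in the high and 0.982 to 13.8 CPM in the low lines, with medians of 13.4 and 1.61 CPM. C57BL/6J had 13.05 CPM of Fcrls and DBA/2J 5.23 CPM. Its log2 difference was 2.07 ± 0.51 (edgeR adjusted p = 0.158), while C1qa of the same cells had 0.33 ± 0.14. Sft2d2, a vesicle transport gene on chromosome 1, was nearer C57BL/6J in 6 high lines and nearer DBA/2J in all 9 low lines, at medians of 43.9 and 24.5 CPM (edgeR adjusted p = 0.0804, and 0.0404 without BXD32). Cacul1 on chromosome 19, the chromosome of Emx2os, was nearer DBA/2J in all 9 high lines and in 3 low lines (log2 difference -0.33 ± 0.08, edgeR adjusted p = 0.0889). Pot1b, a telomere-binding gene on chromosome 17, had -0.81 ± 0.19 between the sets (edgeR adjusted p = 0.105) and a slope of -4.94 ± 1.25 in the middle lines. On chromosome 4, the chromosome of Crocc, Kif17, a kinesin motor, had -0.51 ± 0.13 and Sh2d5 -0.36 ± 0.09 (edgeR adjusted p 0.174 and 0.172). For each, 8 of 9 low lines were nearer C57BL/6J, as were 3 high lines for Kif17 and 2 for Sh2d5.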
